A study of Mus musculus with 20 samples.

Results

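The Krüppel-like factor (Klf) genes described here are Klf2 and 9 of its paralogs, Klf3, Klf4, Klf5, Klf6, Klf9, Klf10, Klf11, Klf13 and Klf16, which make up 10 of the 23284 genes in each table. They were chosen by family name and by measured values of the same libraries, namely the input level, the IP over input ratio in each line and the difference between Tet2 and Tet2ΔRBD. Those values are therefore given as a description, and p-values are printed only for the comparison of inputs between lines. The input level was among the values used for the choice, so those p-values are descriptive too. Where the fit across all genes called a listed gene for such a value, the count is given beside the share of all genes called and lends no support to the choice. All 10 genes passed the filter on low counts, and the lowest expected count of any of them in a library was 319, for Klf6.

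The libraries came from mouse embryonic stem cells (ESCs) grown on gelatin in serum with leukemia inhibitory factor. In the Tet1-KI line and in the line with tagged Tet2, the endogenous protein carried a C-terminal triple tag of Flag, HA and Twin-Strep, added by CRISPR knock-in. The Tet2ΔRBD line carried the same tag on a Tet2 whose RNA-binding domain (RBD), next to the catalytic domain, had been deleted. Each line was taken from picked clones, so differences between clones and the effect of the deletion cannot be told apart. RNA bound to the anti-Flag antibody (IP) was set against total RNA (input), in 2 pairs for Tet1, 4 for Tet2 and 4 for Tet2ΔRBD, 20 libraries in all. Since the IP started from cytoplasmic extract, per the methods, the ratio also holds any difference between cytoplasm and whole cell, and the mouse IgG control was not analysed here.

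KLFs are transcription factors that bind GC-rich and CACCC elements through C-terminal zinc fingers which are highly alike across the family, while their N-terminal parts recruit different partners. Klf2, Klf4 and Klf5 act in the self-renewal of mouse ESCs, where they bind many of the same target genes as Nanog and Esrrb. Klf3 represses transcription through the corepressor CtBP, and Klf9, Klf10, Klf11, Klf13 and Klf16 recruit the corepressor Sin3. The comparison asks whether the lower recovery of Klf2 mRNA with Tet2ΔRBD than with Tet2 is also seen for transcripts of genes that share its DNA-binding fold.

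Library totals lay between 21078995 and 37576638 expected counts. The 6 ESC markers summed to 12766 to 16354 TPM in the inputs (transcript counts scaled for length and library size), and none had a mean below 50.7 TPM. The 8 markers of differentiated derivatives summed to 31.4 to 32.3 TPM in the Tet1 inputs, 18.5 to 76.2 in those of Tet2 and 45.3 to 101 in those of Tet2ΔRBD, and 4 of them had a mean under 1 TPM. The 6 fibroblast markers summed to 15.4 to 17.7 TPM for Tet1, 19.0 to 45.3 for Tet2 and 14.4 to 66.2 for Tet2ΔRBD, and none of either list was at 0 in every input. Their part in the results was not tested, and in these bulk samples fewer cells of a type and less RNA per cell cannot be told apart. Replicates 3 and 4 of Tet2 were close to each other, with a mean chi-square per gene of 3.25 between the IPs and 3.48 between the inputs, against 188 to 526 for the other pairs of Tet2 libraries. For Tet2ΔRBD the same values were 2.69 and 16.1, against 132 to 413. Replicates 1 and 2 of Tet1 were also close to each other, at 7.49 between the IPs and 7.62 between the inputs. The study describes its RIP-Seq as done at least in biological duplicate, but neither it nor the labels say which replicate numbers came from separate cultures, so part of the spread between them may be technical. The names of the deposited data carry a set code whose meaning is not given. In both Tet2 lines, replicate 1 had the code of set 1 and replicate 2 that of set 2. Replicates 3 and 4 and all Tet1 libraries had that of set 3. Replicate number and set therefore cannot be told apart.

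The study reported a UC-rich motif at the centers of its hydroxymethylation peaks, which lay mostly in introns. Here the mature transcripts were searched for unbroken runs of C or T, which is not that motif, and introns were not searched. On the mm9 build (NCBIM37, gencode vM1 annotation), Klf2 lies at chr8:74842932-74845555 on the + strand, with 3 exons and a mature transcript of 1847 bases, of which 1065 are coding. Its gene span of 2624 bases was the shortest of the 10, and the longest was that of Klf13, with 52565 bases. A run of at least 12 consecutive C or T was absent from the Klf2 transcript and present in each of the 9 paralogs, from 1 run in Klf5 to 7 in Klf13. Such a run was present in 70.8% of the 13110 tested genes with an annotated transcript, and in 58.7% of the 1279 genes whose transcript was within 10% of the length of Klf2. The share of C and T over the whole transcript did not set Klf2 apart, with 52.5% for Klf2 and 48.3% (Klf9) to 54.3% (Klf16) for the paralogs. The search read the mRNA strand, and the runs are a description of these letters. The longest run of each gene that could be shown within 30 bases is given with 5 bases on either side, 5′ to 3′, with T for U and the run in capitals.
Klf2 (3′ UTR, chr8:74845497-74845517, + strand): gaccaTTCCTTTTTTTagaaa
Klf4 (5′ UTR, chr4:55544772-55544797, - strand): aggtaCCCCTCTCTCTTCTTCggact
Klf5 (coding, chr14:99700863-99700888, + strand): gacggCCCCTCCTCCTCCTCCggccc
Klf3 (3′ UTR, chr5:65220465-65220494, + strand): tcctaTCTCTTTCTCTTCTCCTTCTgcccg
Klf9 (coding, chr19:23216609-23216631, + strand): gcccaCTCTCCCTCCTCCactct
Klf10 (coding, chr15:38227104-38227127, - strand): agctgCCCCTCCTCTTCCTaaggc
Klf11 (3′ UTR, chr12:25345612-25345637, + strand): ctctgTCTCTCTCTCTCTTTTgtaag
Klf13 (3′ UTR, chr7:71032144-71032173, - strand): tagtgTCCCCTCCCCCCCCTCCCCCatctc
Klf16 (3′ UTR, chr10:80030650-80030673, - strand): tcgggTTTTTTTTTTTTTTgcaca
Klf6 (3′ UTR, chr13:5867452-5867481, + strand): acacgTTCTCCCCCCTCCCCCCCCCagatc
The longest stretch in Klf2 had 11 bases, and those of Klf3 and Klf13 that are not shown had 30 and 34.

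Stretches of identical sequence between the family members were short, in spite of the related zinc fingers. No window of 50 bases in any of the 10 transcripts occurred in the coding transcripts of another gene. The longest stretch that Klf2 shared with a paralog had 18 bases, with Klf10, and lay across a splice junction of Klf2. With Klf4, which acts beside it in ESCs, the longest shared stretch was 14 coding bases, at chr8:74844741-74844754 on the + strand in Klf2 and at chr4:55541061-55541074 on the - strand in Klf4.
Klf2 and Klf4: ccctttcagtgcca

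Klf2 was the most abundant Klf transcript before IP. Its input level was 138 ± 42.4 TPM (SD, n = 10 inputs), followed by Klf5 with 98.2 ± 38.8, which was lower in each of the 10 inputs. Klf10, first described as a gene induced early by TGF-β, came next with 63.7 ± 20.8 TPM. The order was less settled in the middle of the family. Klf16 (46.6 ± 16.0 TPM) was above Klf3 (37.9 ± 10.1) in 6 of 10 inputs, and Klf3 was above Klf4 (31.3 ± 8.81) in 7. Klf13 had 16.6 ± 5.94 TPM, Klf9 15.6 ± 7.93 and Klf11 13.0 ± 3.89, and neighbours among these 3 kept their order in 6 or 7 of 10 inputs. Klf6, a broadly expressed activator, was lowest with 5.81 ± 1.20 TPM, and its highest input of 7.59 TPM lay below the lowest of Klf11, 7.95 TPM.

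**Figure D1:**
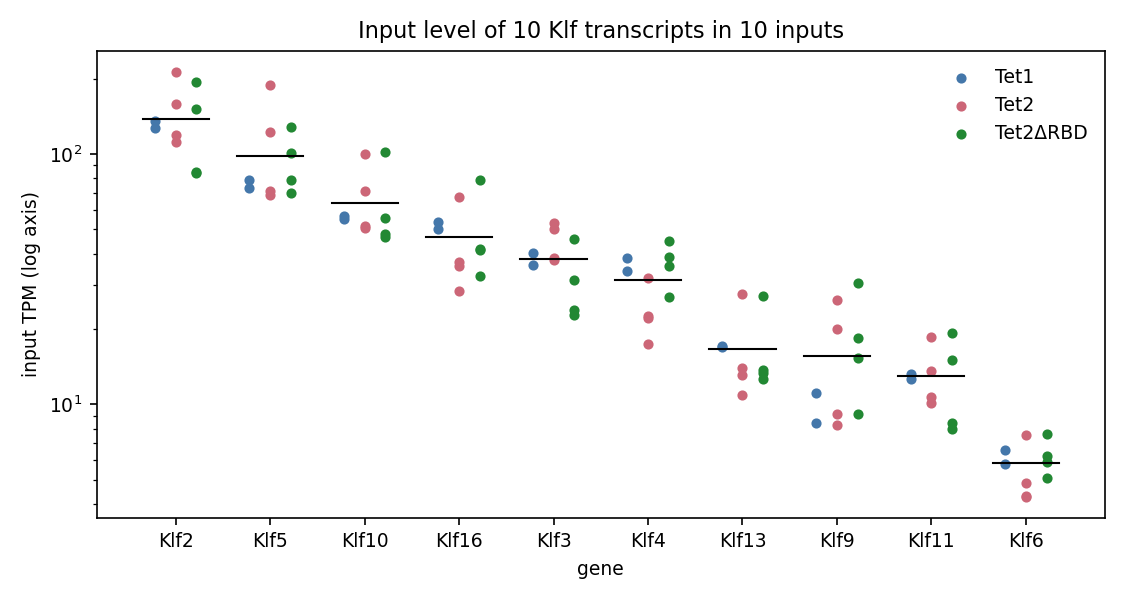
Input TPM (log axis) of the 10 Klf transcripts, each point an input library coloured by line and each bar the mean of 10 inputs. Klf2 is highest with a mean of 138 TPM and Klf6 lowest with 5.81 TPM, and the genes from Klf16 to Klf4 and from Klf13 to Klf11 overlap.

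The unlisted family members were mostly lower. Of the 7 found in the tables, Klf15 (7.97 ± 3.50 TPM) and Klf8 (5.98 ± 2.00) were level with Klf6, Klf7 had 1.42 ± 0.336, and Klf1, Klf17, Klf12 and Klf14 had means under 1 TPM. The listed genes are thus not all Klf genes above a fixed level. In the fit across all genes, 6 of the 7 were tested.

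The level of Klf2 in the inputs differed between replicate numbers as well as between lines. It was 158, 213, 112 and 119 TPM in replicates 1 to 4 of Tet2, and 152, 194, 84.1 and 85.1 TPM in those of Tet2ΔRBD. The Tet1 inputs had 127 and 135 TPM. Replicates 1 and 2 were higher than 3 and 4 in both Tet2 lines, and the groups overlapped.

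The inputs of Tet2ΔRBD and Tet2 were compared across 13178 genes with the quasi-likelihood test of edgeR, and none of the 10 Klf genes was called, with 0.0% of all genes called. In that test 248 genes had an unadjusted p under 0.05. The fitted log2 difference of Klf2 was -0.21 (95% interval -0.97 to 0.54, adjusted p = 0.9998 by edgeR), and on log2(TPM + 1) the exact two-sided permutation test over samples gave p = 0.429 for a difference of -0.27, with 0.0286 as the smallest p that 4 against 4 allows. The latter difference was -0.09 without replicate 2 of Tet2, -0.10 without replicate 3 or 4 of Tet2ΔRBD and -0.50 without replicate 2 of Tet2ΔRBD. Leaving out a library of only one line also unbalanced the sets between the lines. Neither test took account of replicate number, so the spread they used included that between sets. The fitted interval includes a lower as well as a higher input level, so equal levels were not shown. Klf2 was lower in Tet2ΔRBD at each of the 4 replicate numbers, by 0.06 to 0.48 on the log2 scale.

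Klf4, a reprogramming factor downstream of LIF and Stat3, had the largest fitted input difference of the 10. Its inputs had 17.4, 31.9, 22.1 and 22.5 TPM for Tet2 and 39.0, 26.9, 35.7 and 45.0 TPM for Tet2ΔRBD. It was higher in Tet2ΔRBD at 3 of the 4 numbers, and the groups overlapped through replicate 2. The fitted difference was 0.65 (95% interval 0.11 to 1.20, unadjusted p = 0.0236 and adjusted p = 0.9998 by edgeR). Since Klf4 is singled out here as the largest of the 10, the unadjusted p is no separate evidence. Klf3 had a fitted input difference of -0.53 (95% interval -1.17 to 0.11, adjusted p = 0.9998 by edgeR).

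Klf2 stood out in the Tet2 IP. Its level there was 502, 558, 289 and 310 TPM in replicates 1 to 4, against the inputs given above. In the Tet2ΔRBD IP it was 154, 167, 102 and 101 TPM, and in the Tet1 IP 167 and 173 TPM. Every Tet2 IP was above every other library of the study for this transcript, whereas the Tet2ΔRBD IPs lay within the range of the inputs of their line.

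**Figure D2:**
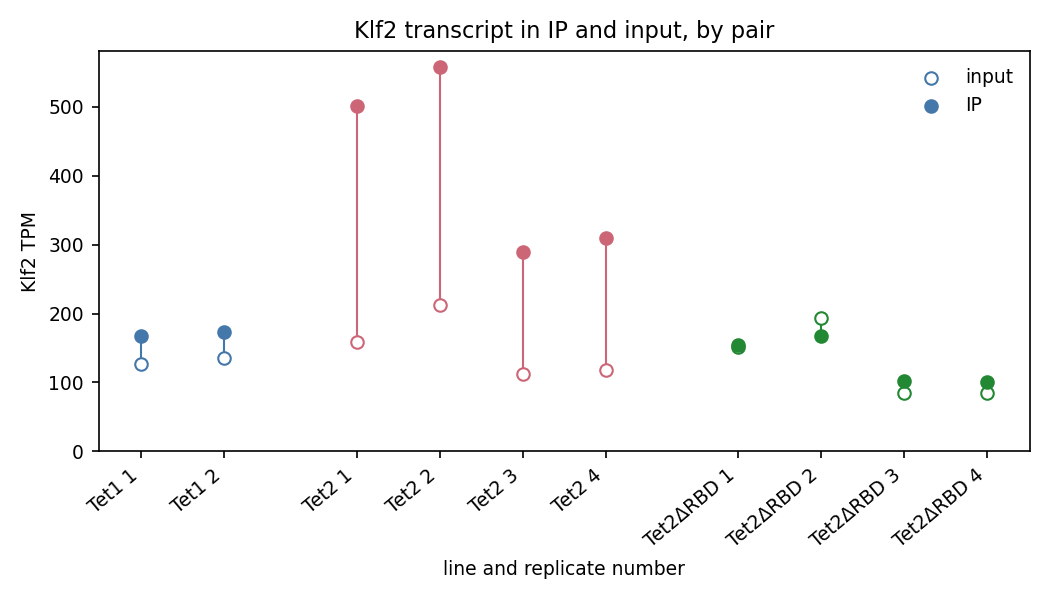
TPM of Klf2 in each IP (filled) and its input (open), by line and replicate number, joined by a line per pair. The 4 Tet2 IPs lie at 289 to 558 TPM, the Tet2ΔRBD IPs at 101 to 167 TPM and the Tet1 IPs at 167 and 173 TPM.

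On the log2 scale of TPM + 1, the IP over input ratio of Klf2 was 1.66, 1.39, 1.36 and 1.38 in the 4 pairs of Tet2. It was 0.02, -0.21, 0.27 and 0.24 in those of Tet2ΔRBD, and 0.39 and 0.35 in those of Tet1. The Tet2 ratios spanned 0.30 among themselves and the lowest of them was above the highest of Tet2ΔRBD by more than that span. Every Tet2 ratio above every Tet2ΔRBD ratio was a pattern that Klf2 showed and none of the 9 paralogs did, and 1.3% of the 13710 tested genes had it. The Tet1 ratios lay above all those of Tet2ΔRBD and below all those of Tet2, though the Tet1 pairs were all of set 3.

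Klf2 therefore took a different share of the family in each pull-down. Of the summed TPM of the 10 genes, Klf2 made up 30.6% ± 0.976 (SD, n = 4) in the Tet2 inputs and 53.3% ± 2.70 in the Tet2 IPs. In Tet2ΔRBD the share was 27.4% ± 4.36 in the inputs and 27.3% ± 5.92 in the IPs. For Tet1 it was 30.2% ± 0.753 and 36.8% ± 0.481 (n = 2). The share does not depend on how libraries are scaled to each other. Within Tet2ΔRBD, replicate 2 was highest in both, with 33.4% in the input and 36.1% in the IP, and the other IPs lay between 23.8% and 24.8%.

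**Figure D3:**
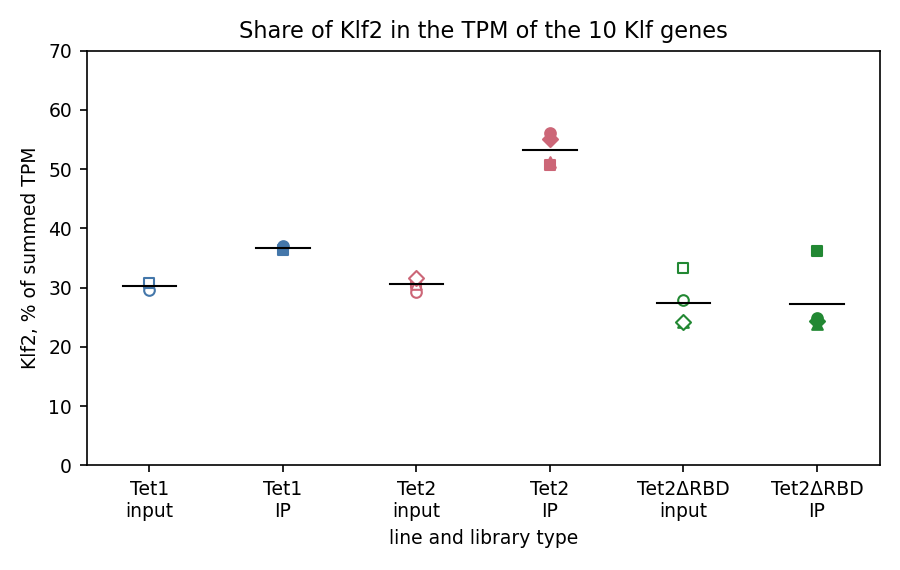
Klf2 as a percentage of the summed TPM of the 10 Klf genes, in inputs (open) and IPs (filled) of each line, with bars at the means. Circles, squares, triangles and diamonds stand for replicates 1, 2, 3 and 4. The Tet2 IPs lie at 50.7% to 56.2%, above all other libraries, and replicate 2 of Tet2ΔRBD lies above the other libraries of its group.

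Klf4 was the paralog whose ratios came closest to those of Klf2. They were 0.30 and 0.58 in Tet1, 1.19, 0.48, 0.49 and 0.37 in Tet2, and 0.82, -0.14, 0.49 and 0.12 in Tet2ΔRBD. Replicate 1 was highest in both Tet2 lines and the ratios of the lines overlapped. Klf5, required for the inner cell mass and for ESC self-renewal, was below its input in every pair of every line. Its ratios were -0.52 and -0.45 in Tet1, -0.24, -0.13, -0.13 and -0.43 in Tet2, and -0.05, -0.93, -0.08 and -0.10 in Tet2ΔRBD. Replicate 2 of Tet2ΔRBD lay apart from the other 3 pairs of its line.

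Klf3, the CtBP-dependent repressor, was near its input level on this scale in both Tet2 lines, with ratios from -0.13 to 0.04 in Tet2 and from -0.39 to 0.14 in Tet2ΔRBD. Its Tet1 ratios were -0.20 and -0.22. Klf6 had ratios of 0.17 and 0.41 in Tet1, 0.08 to 0.27 in Tet2, and -0.36 to 0.61 in Tet2ΔRBD. For both genes the Tet2 ratios lay inside the range of those of Tet2ΔRBD.

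The Sin3-recruiting members did not share a direction. Klf9, a regulator induced by thyroid hormone and glucocorticoids, lay at or above 0.64 in every pair of all 3 lines, with ratios of 1.11 and 1.61 in Tet1, 0.79 to 1.15 in Tet2 and 0.64 to 1.62 in Tet2ΔRBD. Klf10 was the reverse, below input in every pair, with -0.45 and -0.52 in Tet1, -0.66 to -0.30 in Tet2 and -0.71 to -0.20 in Tet2ΔRBD. Klf11, the closest relative of Klf10, had -0.23 and -0.21 in Tet1, -0.03 to 0.40 in Tet2 and -0.78 to 0.35 in Tet2ΔRBD. Klf13, which has the longest 3′ UTR of the 10 with 5157 bases, was above input in every pair, at 0.12 and 0.24 in Tet1, 0.46 to 1.08 in Tet2 and 0.08 to 0.82 in Tet2ΔRBD. Klf16 had 0.01 in both Tet1 pairs, 0.20 to 0.49 in Tet2 and -0.04 to 0.66 in Tet2ΔRBD.

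**Figure D4:**
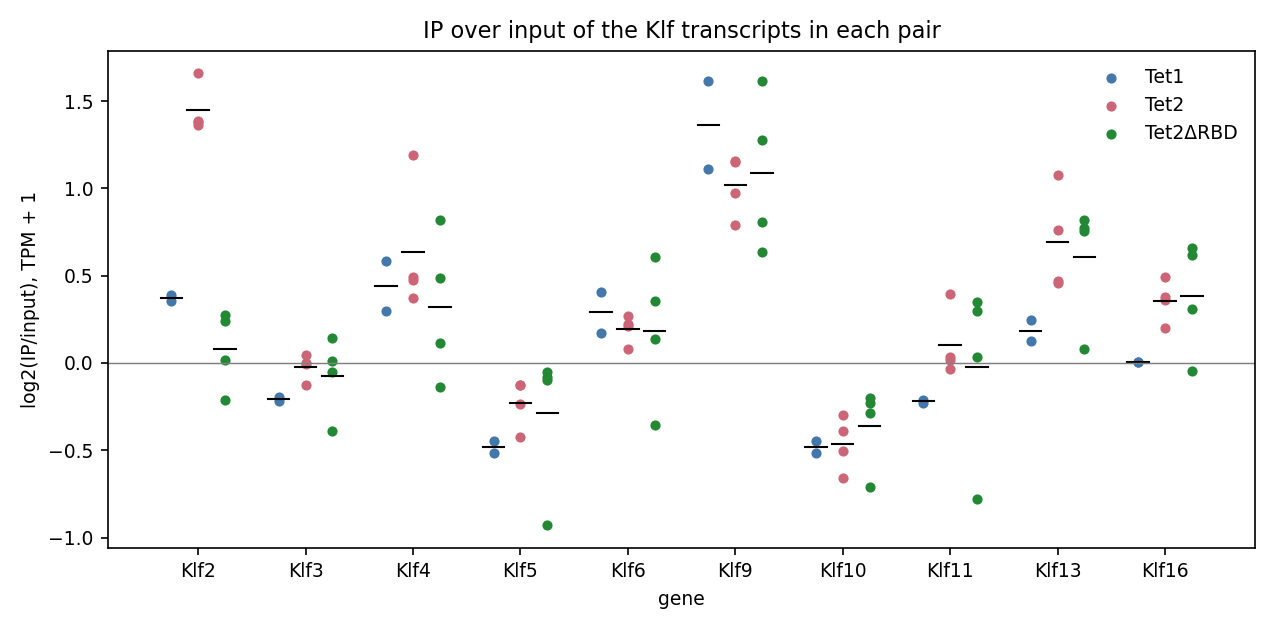
log2(IP/input) on TPM + 1 for each Klf gene, each point a pair of IP and input coloured by line and each bar the mean of a line. For Klf2 the 4 Tet2 pairs lie at 1.36 to 1.66 and those of Tet2ΔRBD at -0.21 to 0.27, and for each of the other 9 genes the lines Tet2 and Tet2ΔRBD overlap.

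Counting the genes whose IP exceeded the paired input in TPM for all replicates of a line, 6 of the 10 genes were above input in Tet1, where 50.9% of the tested genes were, and 6 in Tet2, where 46.5% were. They were Klf2, Klf4, Klf6, Klf9, Klf13 and Klf16 in both lines. In Tet2ΔRBD only Klf9 and Klf13 met the rule, where 31.8% of the tested genes did. That lower count rested on replicate 2 of Tet2ΔRBD. Without that replicate, 7 of the 10 and 53.7% of the tested genes met the rule in Tet2ΔRBD, among them Klf2, whose 3 remaining ratios were 0.02 to 0.27. The size of the ratio, by contrast, was lower in all 4 Tet2ΔRBD pairs than in any Tet2 pair for Klf2.

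Scaled between libraries by TMM in the fit across all genes, the ratios lay lower. The median ratio of the tested genes was between 0.03 and 0.34 in the pairs on the TPM scale, and 0.00 for Tet2, -0.01 for Tet2ΔRBD and -0.04 for Tet1 in the fit. Ratios near 0 change sign with this choice. The Tet2 ratio of Klf6 was -0.09 in the fit and above 0 in all 4 pairs on TPM, and those of Klf11 and Klf3 were -0.21 and -0.34. The Tet2ΔRBD ratio of Klf2 was -0.20 in the fit, while on TPM its mean was 0.08 and 3 of 4 pairs were above input.

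In that fit, given as a description because the ratios were used to list the genes, 3 of the 10 genes were called higher in the Tet2 IP than in input, Klf2, Klf9 and Klf13, where 14.6% of all genes were called higher. The fitted log2 ratios were 1.14 (SE 0.10) for Klf2, 0.75 (SE 0.16) for Klf9 and 0.41 (SE 0.11) for Klf13. Another 3 were called lower, where 18.5% of all genes were, with -0.34 (SE 0.09) for Klf3, -0.55 (SE 0.12) for Klf5 and -0.79 (SE 0.10) for Klf10. In Tet2ΔRBD the same genes were called apart from Klf2. Klf9 at 0.86 (SE 0.16) and Klf13 at 0.36 (SE 0.11) were the 2 called higher, beside 7.4% of all genes, and Klf3 at -0.35, Klf5 at -0.57 and Klf10 at -0.64 were the 3 called lower, beside 12.1%. The Klf2 ratio in Tet2ΔRBD was -0.20 (SE 0.10, 95% interval -0.42 to 0.03).

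In Tet1, where 2 pairs were available, 1 gene was called higher and 2.72% of all genes were. It was Klf9, at 1.30 (SE 0.23). Klf5 at -0.64 (SE 0.16) and Klf10 at -0.64 (SE 0.14) were the 2 called lower, beside 3.18% of all genes. The Klf2 ratio in Tet1 was 0.22 (SE 0.14, 95% interval -0.09 to 0.54). None of the 3 calls in Tet1 was made when either Tet1 replicate was left out, and without the pairs as blocks 0 of the 10 genes were called in any of the lines.

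The difference between the lines was largest for Klf2 among the 10. Taken within replicate numbers, the ratio in Tet2 minus that in Tet2ΔRBD was 1.64, 1.60, 1.09 and 1.14 at numbers 1 to 4 for Klf2. The fitted difference was 1.33 (SE 0.14, 95% interval 1.01 to 1.65), a 2.52-fold higher ratio with Tet2, and had rank 57 of 13710 genes ordered from the most positive to the most negative difference. Klf2 was called in this contrast, as were 0.0219% of all genes in the same direction, and since it was listed for this difference the call is no separate evidence. The value moved little with the processing, from 1.26 to 1.40 over 19 alternatives, but the call depended on it. It was lost in 11 of the 18 alternatives that were tested, among them the fit without the pairs as blocks (1.37, SE 0.42), that with replicates 3 and 4 merged (1.36, SE 0.20), and those without replicate 1, 3 or 4 of Tet2, without replicate 1 or 3 of Tet2ΔRBD or without either replicate of Tet1.

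The 9 paralogs had lower values. Their fitted differences ran from -0.15 (Klf10) to 0.29 (Klf4), with a median of 0.01 beside -0.01 for all tested genes. As a description, the 95% interval of each of the 9 included 0 and ended at 0.75 or lower, which leaves room for differences of some size. The interval of Klf4 ran from -0.17 to 0.75, that of Klf11 from -0.38 to 0.57 and that of Klf9 from -0.61 to 0.40, whereas that of Klf10 ended at 0.16.

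The remaining paralogs had fitted differences of 0.10 for Klf11, 0.05 for Klf13, 0.02 for Klf5, 0.01 for Klf3, -0.02 for Klf6, -0.07 for Klf16 and -0.10 for Klf9. By replicate number, Klf4 was the only paralog with a higher ratio in Tet2 at all 4, at 0.38, 0.61, 0.003 and 0.26. Its value at number 3 was close to 0. At number 2 all 9 paralogs were higher in Tet2, up to 1.18 for Klf11, 0.99 for Klf13 and 0.80 for Klf5, and 8 of the 9 had their highest difference there. The shares of all tested genes with these patterns were not counted, so the counts say little about the family. The median difference over all tested genes was also highest at number 2, at 0.28, against -0.06, -0.07 and -0.07 at numbers 1, 3 and 4. The median of the paralogs was 0.53 at number 2, and -0.11, -0.19 and -0.28 at the others.

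**Figure D5:**
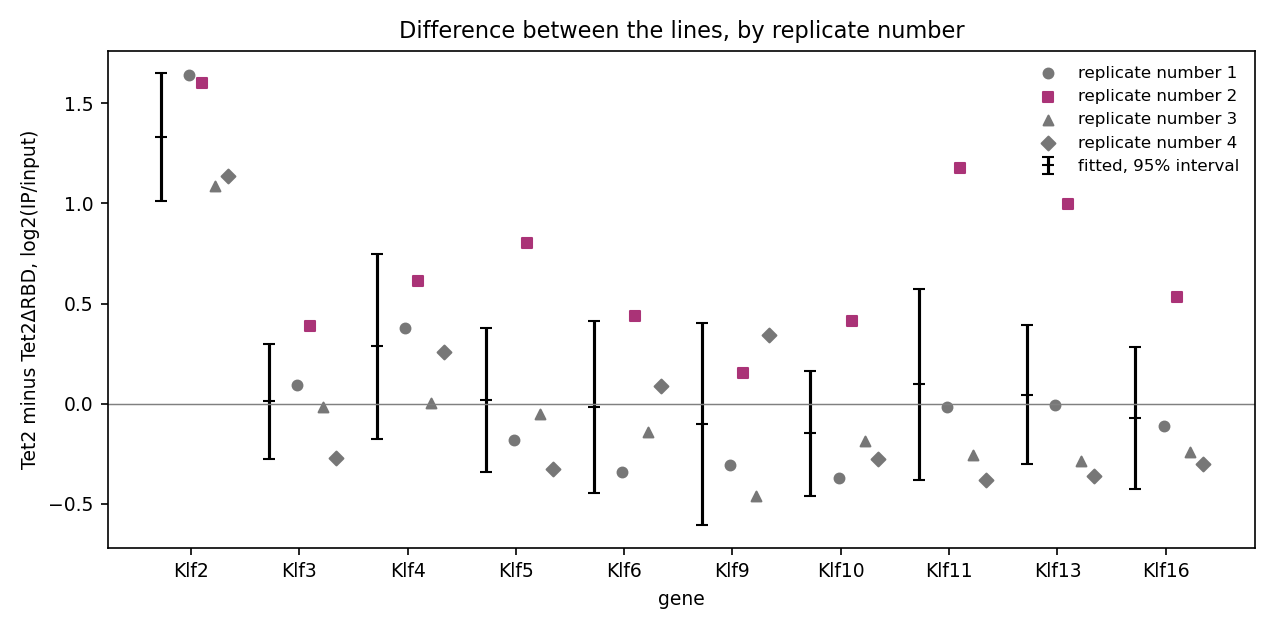
Difference in log2(IP/input) between Tet2 and Tet2ΔRBD for each Klf gene, with the fitted value and its 95% interval (black) and the difference on TPM + 1 at each replicate number (points, number 2 in colour). Klf2 lies at 1.09 to 1.64 at all 4 numbers, and 8 of the 9 paralogs have their highest value at number 2.

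Klf2 exceeded the highest paralog at every replicate number, by 1.26, 0.42, 1.08 and 0.80 at numbers 1 to 4. The gap was smallest at number 2, where Klf11 was the highest paralog. With each pair centred on the median of the tested genes, the differences of Klf2 were 1.70, 1.32, 1.16 and 1.21, and the highest paralog at number 2, again Klf11, was at 0.89. On that scale Klf4 stayed above 0 at all 4 numbers, at 0.43, 0.33, 0.08 and 0.33.

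Among the unlisted Klf genes that were tested, Klf7 had the highest difference, 0.50 (SE 0.33, 95% interval -0.23 to 1.23), at a low input level. Its Tet2 ratio of 1.16 (SE 0.24) was called, and Klf8 was called lower in Tet2 at -0.64 (SE 0.16) and in Tet2ΔRBD at -0.70 (SE 0.16). Each of these calls was 1 of the 6. Of all genes, 14.6% were called higher in Tet2, and 18.5% and 12.1% lower in Tet2 and Tet2ΔRBD. Klf1 had the lowest difference, -0.61 (SE 0.54). None of the 6 tested genes was called for the difference between the lines, beside 3 of all 13710 genes. With so few calls, their absence from a short list says little about its genes.

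The Sp genes encode factors with closely related zinc fingers. Of the 9, 7 were tested, with a median difference between Tet2 and Tet2ΔRBD of 0.00 beside -0.01 for all genes. None was called for that difference, beside 3 of all 13710 genes. Sp8 had the highest value, 0.51 (SE 0.89), and Sp4 the lowest, -0.54 (SE 0.31). Sp2 was called lower than input in Tet2 (-0.66, SE 0.11) and in Tet2ΔRBD (-0.59, SE 0.11), and Sp3 was called higher in Tet1 (1.28, SE 0.29). Each of these calls was 1 of 7. Of all genes, 18.5% and 12.1% were called lower in Tet2 and Tet2ΔRBD, and 2.72% higher in Tet1.

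The partners of Klf2, Klf4 and Klf5 in the naive pluripotency network numbered 14 and were all tested. None was called for the difference, beside 3 of all 13710 genes, and their median was -0.02. The highest was Stat3, which carries the LIF signal, at 0.18 (SE 0.17), and the lowest Nanog, a core pluripotency factor, at -0.17 (SE 0.16). Nr5a2, an orphan nuclear receptor that acts upstream of Pou5f1, was called higher than input in Tet1 (1.64, SE 0.40), Tet2 (1.19, SE 0.27) and Tet2ΔRBD (1.12, SE 0.28). Nanog was called lower in all 3 lines, at -0.80 (SE 0.16), -1.19 (SE 0.11) and -1.02 (SE 0.11). Sox2 was called lower with both forms of Tet2 (-0.55, SE 0.10, for the whole protein and -0.57, SE 0.10, for Tet2ΔRBD). Of the 14, 1 was called higher in each line, beside 2.72%, 14.6% and 7.4% of all genes in Tet1, Tet2 and Tet2ΔRBD. Those called lower numbered 1, 2 and 2, beside 3.18%, 18.5% and 12.1% of all genes.

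Of the 12 cofactors and ubiquitin ligases of KLF proteins, none was called for the difference, beside 3 of all 13710 genes. Their median was 0.09. Ep300, a histone acetyltransferase, was highest at 0.29 (SE 0.29), and Wwp1, a ligase that acts on Klf2 and Klf5 proteins, was lowest at -0.16 (SE 0.50). In the Tet2 IP, where 14.6% of all genes were called higher, 5 of the 12 were, namely Fbxw7 (1.05, SE 0.14), Wwp1 (1.44, SE 0.35), Hdac2 (0.84, SE 0.29), Ep300 (0.79, SE 0.21) and the corepressor Sin3a (0.77, SE 0.26). Fbxw7, a ligase subunit for Klf2 and Klf5, was also called in Tet1 (0.91, SE 0.20) and in Tet2ΔRBD (1.11, SE 0.14), where Wwp1 was called too (1.59, SE 0.36). Those called higher were thus 1 of the 12 in Tet1 and 2 in Tet2ΔRBD, beside 2.72% and 7.4% of all genes. None of the 12 was called lower in Tet1, Tet2 or Tet2ΔRBD, where 3.18%, 18.5% and 12.1% of all genes were.

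The transcripts whose ratios over the 10 pairs lay closest to those of Klf2 were not family members. Among 8467 genes with a mean input of at least 5 TPM, the lowest root mean square differences from Klf2 were those of Slc25a38 (0.21), Slc44a4 (0.23), B3gnt1 (0.26), Atp6v0e2 (0.27) and Eif4e2 (0.28). Slc25a38, a mitochondrial glycine carrier, had mean ratios of 0.25 in Tet1, 1.47 in Tet2 and 0.19 in Tet2ΔRBD. Slc44a4, a choline transporter-like protein, had 0.37, 1.63 and 0.16. Eif4e2, a cap-binding translation repressor, had 0.28, 1.26 and 0.25, at an input level of 186 TPM. B3gnt1, a glycosyltransferase, had 0.44, 1.09 and 0.26, and Atp6v0e2, a subunit of the vacuolar proton pump, had 0.23, 1.21 and 0.17. With 9 paralogs among 8467 genes, a closest 5 without any of them says little about the family. The closest paralog was Klf4, at 0.60 and rank 519, followed by Klf13 at 0.62 and rank 713, and Klf10 was farthest, at 1.31 and rank 7729.

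The tagged genes themselves were expressed in every line. Tet1 had 15.4 ± 2.57 TPM in the Tet1 inputs (SD, n = 2), 10.25 ± 1.86 in those of Tet2 (n = 4) and 12.2 ± 3.75 in those of Tet2ΔRBD (n = 4). Tet2 had 5.87 ± 1.28 TPM in the Tet1 inputs (SD, n = 2), 5.83 ± 1.29 in those of Tet2 (n = 4) and 5.99 ± 2.75 in those of Tet2ΔRBD (n = 4). A value for the whole gene does not show the deletion, so these levels do not check the labels.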

How the data were processed

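RIP-Seq libraries were grouped by the genotype, sample type and replicate number of their labels. The authors' processing notes name Trimmomatic, FastQC, Bowtie2, RSEM and mm9, and they deposited an expected count per gene together with TPM + 1, from which 1 was subtracted to give TPM, and FPKM, which was not used. Other columns of the files hold transcript lengths. Members and gene lists were chosen with earlier results of these data known. Expected counts were rounded and fitted with edgeR 4.0.16 in R 4.3.3 (TMM, quasi-likelihood, genes with 1 CPM in at least 2 libraries, 20 libraries), with the pair of IP and input as a block, an IP effect per line and Benjamini-Hochberg adjustment at 0.05. The residual degrees of freedom were 7. A standard error is the log2 ratio divided by the square root of F. The same numbers paired IP and input, as their deviations from the group means correlated at 0.58 to 0.87 in the Tet2 lines and at 0.27 in Tet1. Replicates 3 and 4 could not be told apart by this check, since IP 4 correlated with input 3 at 0.80 in Tet2 and 0.73 in Tet2ΔRBD, against 0.78 and 0.58 with its own input, so their pairing rests on the labels. Inputs of Tet2ΔRBD and Tet2 were fitted apart, without a block. Alternatives were DESeq2 1.42.0, limma 3.58.1 on log2 TPM with a pseudocount of 1 or 0.1, no filter on low counts, other blocks, other sets of libraries, replicates 3 and 4 merged, and leaving out each replicate.

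All 10 listed Klf genes were named, with the unlisted Klf genes by count and level. Also named were the 5 genes with the lowest root mean square difference from Klf2 in log2 ratio, the genes of each list with the highest and lowest difference between Tet2 and Tet2ΔRBD and any called, and the tagged genes. Transcript sequences were those of gencode vM1 on NCBIM37 whose length was nearest to that in the files. The code was tested on simulated data. Plots were drawn with matplotlib 3.10.9.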

Additional observations from a re-analysis of the deposited data

Results flagged for a closer look

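The IP effect of Klf2 differed between Tet2 and Tet2ΔRBD by a fitted 1.33 on the log2 scale, which the fit across all genes called. Klf2 was listed for this same difference, so the call restates the choice and is no separate evidence.

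Within groups of 4 libraries or pairs, 13 of 70 sets of values for the Klf genes held a value far from the other 3. Chance alone flags about 1 in 20 sets of 4 independent values. That rate does not hold here, since replicates 3 and 4 were close to each other, which favours flags at the other numbers. Values of the same libraries are not independent across genes either. Replicate 2 held 6 of these and replicate 1 the others. At replicate 1, the log2(IP/input) in Tet2 was 1.66 for Klf2, with the others at 1.36 to 1.39, and 1.19 for Klf4, with the others at 0.37 to 0.49. The TPM of Klf6 in the Tet2 IP was 9.27 (others 5.15 to 5.21). In the Tet2ΔRBD IP at replicate 1, Klf3 had 44.0 TPM (others 23.7 to 25.2), Klf9 75.2 TPM (others 27.6 to 30.02) and Klf10 83.3 TPM (others 33.5 to 41.4), and in the input Klf10 had 102 TPM (others 46.4 to 55.6).

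At replicate 2 of Tet2ΔRBD, the log2(IP/input) was -0.93 for Klf5 (others -0.10 to -0.05), -0.71 for Klf10 (others -0.29 to -0.20) and 0.082 for Klf13 (others 0.76 to 0.82). At replicate 2 of Tet2, the ratio of Klf11 was 0.40 (others -0.03 to 0.04). Klf13 was also high at replicate 2 in TPM, with 59.5 in the Tet2 IP (others 18.3 to 19.8) and 27.0 in the Tet2ΔRBD input (others 12.6 to 13.7).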

How the results depend on the processing

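The fitted difference of Klf2 between Tet2 and Tet2ΔRBD kept its direction and stayed within the spread of its replicates under all 19 alternatives, and over the fits that left out 1 replicate it ranged from 1.26 to 1.40. With the replicate block taken away it was 1.37, and with the replicate number crossed with IP as a replicate block 1.33. No paralog was called in any of the 171 values from the main and alternative fits. Since the main fit called only 3 of 13710 genes, that absence says little about the paralogs. The smallest gap between Klf2 and the highest paralog was 0.86. Klf4 and Klf10 kept the sign of their difference throughout, and the other 7 paralogs changed it at least once. The count of Klf genes called for the difference, 1, fell to 0 without the replicate block, with the number crossed with IP, with the 2 Tet2 lines only and with replicates 3 and 4 merged, and lay between 0 and 1 when replicates were left out. Over all genes that count was 3, and became 29 with DESeq2, 6 without the filter on low counts and 0 in the same 4 fits.

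In the single IPs, the 3 Klf genes called in Tet1 became 1 with limma on log2(TPM + 1), 1 with replicates merged and 0 without the replicate block, and 0 to 3 when replicates were left out. The 5 called in Tet2ΔRBD became 3 without the filter, 3 with replicates merged and 0 without the block, and 3 to 5 when replicates were left out. The 6 called in Tet2 became 0 without the block. Over all genes, the 809 called in Tet1 became 1578 with DESeq2, 318 with replicates merged and 0 without the block. The 4540 of Tet2 became 375 and the 2674 of Tet2ΔRBD 46 without the block, and 1060 with replicates merged in Tet2ΔRBD. For the inputs, 0 genes became 9 with DESeq2 and 5 with the replicate block, none of them a listed Klf gene. The Klf genes above input in every replicate of Tet2ΔRBD numbered 2 to 7 when replicates were left out, an alternative chosen after seeing the data, as was the centring of pairs. Of the 5 genes closest to Klf2, 2 were also among the closest 5 by Pearson's r. The causes were not tested.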
